A study of Homo sapiens with 15 samples.

Results

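The genes described here lie at the end of the short arm of chromosome 11. They are all protein-coding genes of the deposited count table that start within the first 2 Mb of chromosome 11 (GENCODE 44, GRCh38), apart from IRF7, IFITM1, IFITM2, IFITM3, SIRT3, CTSD and RPLP2, which were left out by the rule that defined the set. Of the 65 protein-coding genes in this stretch, 58 remained, among 57272 genes in the table, of which 19629 are protein-coding. The stretch was chosen by comparing empty-vector cells that were senescent with young ones, because it was among the chromosome ends with many upregulated genes in that comparison. The values of that comparison are therefore a description and carry no test here.

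The cells were MRC-5, a diploid fibroblast line derived from fetal lung. RNA was sequenced from 15 libraries of these cells, 3 replicates in each of 5 conditions. Young cells (population doubling, PD, 30) had received the empty lentivirus pWPIR-GFP and a control siRNA, the TRF2-expressing virus pWPIR-GFP-TRF2 and the control siRNA, or siLMNB1, whose columns in the table also name the empty vector. Senescent cells had carried the empty vector until they stopped dividing at PD 71, or the TRF2 vector until PD 75, and both had received the control siRNA. All cells were grown at 5% O2. TRF2 is the shelterin subunit that binds the double-stranded DNA of telomeres, and Lamin B1, the product of LMNB1, is a structural protein of the nuclear lamina. The TRF2 of the virus adds to that of the cell's own gene, and siLMNB1 was a transient transfection, with RNA collected 4 days later in the young cells. The 6 senescent libraries are all labelled as reanalysed from an earlier deposit, so deposit and senescence cannot be told apart.

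The total count per library lay between 26725885 and 43116046. TERF2, the gene of TRF2, reached 128 to 307 CPM (counts scaled to library size after TMM normalisation) in the young and 210 to 285 CPM in the senescent libraries with the TRF2 vector, against 21.9 to 26.0 CPM in the other 9. LMNB1 was at 2.36 to 2.91 CPM with siLMNB1 and at 2.68 to 5.65 CPM in the senescent libraries, against 53.9 to 61.0 CPM in the other young ones. All 10 fibroblast markers were present, and their summed level lay between 20069 and 33773 CPM. The summed level of 8 epithelial markers was 32.8 to 69.0 CPM with at most 0.314 CPM of CDH1, and that of 6 endothelial markers was 1.65 to 4.37 CPM. For 6 immune markers it was 0.0587 to 0.505 CPM in the young and 1.48 to 3.50 CPM in the senescent libraries, with at most 0.0879 CPM of PTPRC. The senescent libraries differed from the young ones in how counts depended on base composition. Relative to the mean of the young empty-vector libraries, the log2 level of a gene rose by 0.46 to 0.82 for every 10 percentage points of GC in its exons in the senescent libraries, and by -0.0063 to 0.13 in the young ones. Replicate 3 of the senescent empty-vector cells stood apart with 0.82, against 0.46 and 0.51 in the other 2 replicates.

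Subtelomeres are the stretches of chromosome next to the telomeres. In a telomere position effect, genes near a telomere are kept at a low level by the telomere or by chromatin loops that reach it, and they can be released when telomeres shorten. Replicative senescence is the lasting arrest of cells whose telomeres have become too short, and it goes along with a loss of Lamin B1. The end of 11p is gene-dense and holds genes of very different kinds, among them HRAS, a small GTPase of growth factor signalling, a row of gel-forming mucin genes, a row of keratin-associated protein genes, and the tetraspanins CD151 and TSPAN4. Next to it, towards the centromere, begins the imprinted domain of IGF2.

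The genes of this end have GC-rich exons and promoters. The median GC content of the exons was 63.4% in the 36 members that could be tested, from 47.3% in PSMD13 to 71.8% in DRD4, against 47.6% in all genes tested. The promoter set used, built on RefSeq (GRCh38.p14) starts, had an entry by gene symbol for 31 of the 58 members. The other members had no entry in this set, which does not mean that RefSeq lacks them. Some entries start far from the GENCODE start, by 19522 bases in BRSK2, 18539 in LRRC56, 14468 in MOB2 and 11793 in EPS8L2. In the 250 bases upstream of these starts the median GC content was 74.4%, against 58% over all 35116 promoters in the table. The GC box, written GGGCGG on either strand, was found in 77.4% of these members and in 42.6% of all promoters. GGGAGGG on either strand, a core of sites for the zinc finger protein MAZ, was found in 32.3% and 24.7%. The telomere repeat TTAGGG on either strand was found in 6.45% and 7.94%, and TATAAA on either strand in 3.23% and 10.7%. A match to these letters is a description of the sequence and says nothing about binding.

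Printed here are the 250 bases upstream of the start of 6 members whose levels are described further on, on the strand of the gene, 5′ to 3′, with GGGCGG and GGGAGGG (either strand) in capitals. B4GALNT4 (plus strand, chr11:369249-369498), GATD1 (minus strand, chr11:777488-777737), PNPLA2 (plus strand, chr11:818664-818913), POLR2L (minus strand, chr11:842530-842779) and DUSP8 (minus strand, chr11:1572272-1572521) are genes that were higher in senescent cells in at least one comparison. PSMD13 (plus strand, chr11:236726-236975), which had negative log2 fold changes in senescence, short of the fold threshold, is shown beside them. The RefSeq starts lie 10 bases from the GENCODE start in PSMD13, 1 base in GATD1 and none in the other 4. The stretch of POLR2L is also the space between this gene and TSPAN4, which starts on the opposite strand 282 bases away.
B4GALNT4: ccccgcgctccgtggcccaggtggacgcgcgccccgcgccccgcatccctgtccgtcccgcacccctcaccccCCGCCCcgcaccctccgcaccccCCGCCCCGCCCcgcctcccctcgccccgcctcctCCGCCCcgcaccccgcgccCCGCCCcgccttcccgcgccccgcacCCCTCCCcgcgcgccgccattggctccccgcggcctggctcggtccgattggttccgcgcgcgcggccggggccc
GATD1: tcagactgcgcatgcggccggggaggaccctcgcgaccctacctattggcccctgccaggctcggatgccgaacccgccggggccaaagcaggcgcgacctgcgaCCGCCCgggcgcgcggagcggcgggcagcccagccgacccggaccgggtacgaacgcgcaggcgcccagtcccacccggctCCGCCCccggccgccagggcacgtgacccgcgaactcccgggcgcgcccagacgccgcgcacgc
PNPLA2: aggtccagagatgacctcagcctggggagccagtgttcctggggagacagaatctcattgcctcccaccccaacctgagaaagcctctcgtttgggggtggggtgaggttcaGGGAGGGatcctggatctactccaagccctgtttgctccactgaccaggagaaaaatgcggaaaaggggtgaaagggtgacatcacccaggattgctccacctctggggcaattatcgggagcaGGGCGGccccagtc
POLR2L: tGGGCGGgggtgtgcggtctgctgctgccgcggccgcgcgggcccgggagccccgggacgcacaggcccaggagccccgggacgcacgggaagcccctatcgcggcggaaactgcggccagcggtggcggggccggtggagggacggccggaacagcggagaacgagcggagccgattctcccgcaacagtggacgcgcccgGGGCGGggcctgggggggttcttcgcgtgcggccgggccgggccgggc
DUSP8: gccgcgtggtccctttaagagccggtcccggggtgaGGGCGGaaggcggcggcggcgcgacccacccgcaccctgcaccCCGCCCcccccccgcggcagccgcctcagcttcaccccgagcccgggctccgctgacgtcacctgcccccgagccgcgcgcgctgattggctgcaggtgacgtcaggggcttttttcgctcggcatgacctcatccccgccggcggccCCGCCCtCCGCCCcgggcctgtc
PSMD13: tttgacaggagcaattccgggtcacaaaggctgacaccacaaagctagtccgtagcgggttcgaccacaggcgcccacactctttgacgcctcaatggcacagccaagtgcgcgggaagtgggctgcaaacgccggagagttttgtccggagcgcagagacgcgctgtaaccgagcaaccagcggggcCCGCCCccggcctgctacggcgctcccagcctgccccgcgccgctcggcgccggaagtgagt
The upstream sequence of B4GALNT4 was the richest in GC of the 31, at 85.2%, and held 5 GC boxes and 1 GGGAGGG. That of PNPLA2 was at 58.4% with 1 match to each, and that of PSMD13 at 65.6% with 1 GC box and no GGGAGGG.

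Levels per kilobase of exon in young empty-vector cells set a broad range. POLR2L, a small subunit shared by the nuclear RNA polymerases, was highest with 157 CPM per kb, followed by TALDO1, an enzyme of the pentose phosphate pathway, with 110 CPM per kb and CD151, a tetraspanin that binds laminin-binding integrins, with 77.9 CPM per kb. The lowest of the 36 tested members were CRACR2B, a calcium-binding regulator of store-operated calcium entry, with 0.0189 CPM per kb, and DRD4, a dopamine receptor, with 0.0232 CPM per kb. Of the 58 members, 22 had too few counts to be tested, and 10 of these had no count in any library, where a count of 0 allows up to 0.0659 to 0.112 CPM (3 counts, counting error only). Not tested were the mucin genes MUC6, MUC2, MUC5AC and MUC5B (highest count 4), the keratin-associated protein genes KRTAP5-1 to KRTAP5-6 (highest count 2), the troponin genes TNNI2 and TNNT3 (no count), SCGB1C1, ODF3 and SYT8 (no count), NLRP6 and IFITM5 (highest count 1), LSP1 (2), SCT (4), ANO9 (6), ENSG00000250644 (7) and CDHR5 (10). The mucin, keratin-associated and troponin genes of this end were thus at or near 0 in all 5 conditions. CDHR5, an epithelial cadherin, had 10, 3 and 5 counts in the senescent TRF2 libraries and 0, 3 and 1 in the young ones. The ratio was 4.71 with a 95% counting interval of 1.55 to 19.1. In the same comparison ANO9 had 1.57 (0.50 to 5.36) and ENSG00000250644 1.83 (0.47 to 8.53), and both intervals include no change. These intervals pool the libraries of a condition and leave out the spread between them.

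In senescent against young cells with the empty vector, the comparison that chose the end, 34 of the 36 tested members had a positive and 2 a negative log2 fold change. The median was 1.16, against 0.02 over all 15799 genes tested. With the study's thresholds, which ask for an adjusted p below 0.05 and a log2 fold change no smaller than 1, 23 members counted as higher and none as lower, where 16.7% of all genes were higher and 11.8% lower. Of these 23, 14 remained without replicate 3 of the senescent cells, the library with the steepest GC dependence. The 9 lost were CEND1, DEAF1, LMNTD2, MOB2, PGGHG, POLR2L, PTDSS2, SIGIRR and TSPAN4. In that fit 13.6% of all genes were higher. 5 of the tested members, LMNTD2, DRD4, CRACR2B, BRSK2 and IFITM10, passed the filter on low counts only because of the senescent libraries, and 18 of the other 31 were among the 23.

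The senescent and young cells that both expressed TRF2 are libraries that played no part in the choice. Here 14 of the 36 tested members were higher in senescent cells and none was lower by edgeR's quasi-likelihood test, where 11.9% of all genes were higher and 12.1% lower. The median log2 fold change of the members was 0.83, against -0.02 over all genes. All 14 also belonged to the 23 of the empty-vector comparison, of which they were 60.9%. The same overlap over all genes is not given here, so this is not read as a trait of the end. Both comparisons set senescent libraries of the earlier deposit against young ones. The 14 were B4GALNT4, LMNTD2, RASSF7, EPS8L2, TMEM80, GATD1, PIDD1, PNPLA2, CRACR2B, CD151, TSPAN4, BRSK2, DUSP8 and IFITM10. Without the fold threshold 27 members rose and 1 fell, where 28.2% of all genes rose. None fell by the threshold with DESeq2 either, and 30 members had an unadjusted p below 0.05 in either direction. Counts at an unadjusted p, here and below, have no share of all genes beside them and are not read as an excess. Of the 31 members that passed the filter without the senescent libraries, 10 were higher. Of the 21 members whose exons overlap no other gene, 7 were higher. The study describes the libraries of a condition as triplicates and, for young and senescent cells, as biological replicates. Whether each came from its own culture is not said, and the p-values measure the spread between these libraries.

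**Figure D1:**
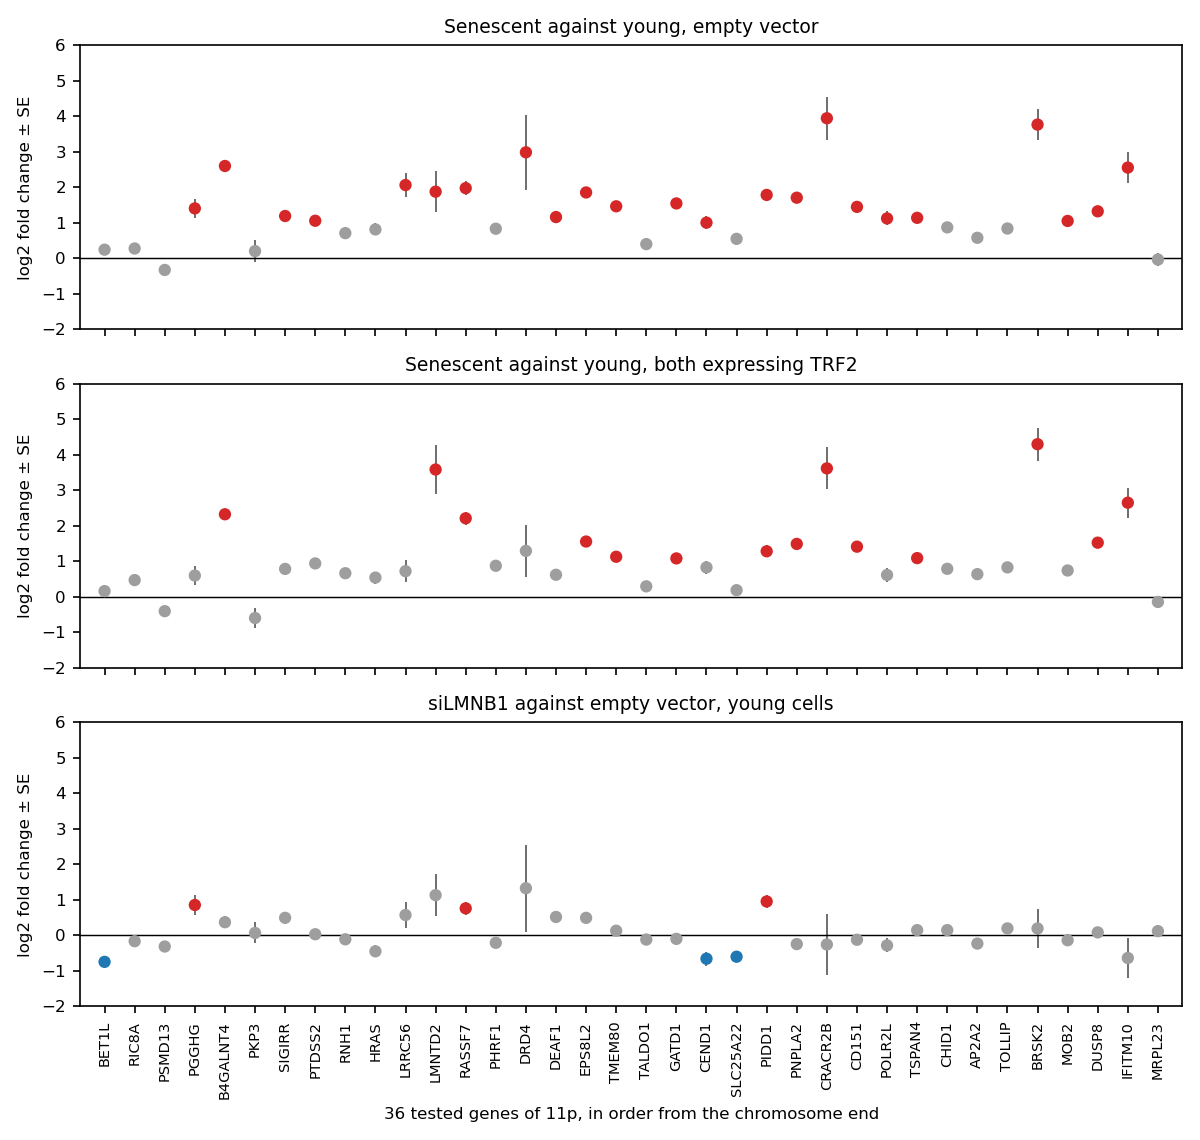
Log2 fold change with its SE (y axis) of the 36 tested genes in order from the chromosome end (x axis), for senescent against young cells with the empty vector (top), the same with TRF2 in both (middle) and siLMNB1 against the empty vector in young cells (bottom). Red points were higher and blue points lower by adjusted p and fold threshold, grey points did not pass both; 23, 14 and 3 points are red and 0, 0 and 3 are blue.

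BRSK2, CRACR2B, LMNTD2 and IFITM10 had the 4 largest log2 fold changes and were near 0 in young cells. They passed the filter on low counts only because they were high in senescent cells, so a gene this low in young cells could be tested only if it rose, and their p-values carry no weight for the end as a whole. With no filter on low counts their adjusted p lay between 1.44e-26 and 1.83e-05 by edgeR's quasi-likelihood test. In that fit 6.60% of all genes were higher. These 4 genes are singled out by their rise, so the unfiltered p-values carry no more weight for the end. BRSK2 (chr11:1389899-1462689, plus strand), a kinase of neuronal polarity and insulin secretion, had 2, 8 and 5 counts in the young and 120, 92 and 77 in the senescent TRF2 libraries. Its log2 fold change was 4.30 ± 0.47 (SE, n = 3 and 3; adjusted p = 7.84e-07). With the empty vector the counts were 2, 15 and 4 in young and 70, 86 and 117 in senescent cells, and with siLMNB1 8, 6 and 15. All 6 senescent libraries thus held more BRSK2 than any of the 9 young ones, and the siLMNB1 libraries lay within the range of the other young ones.

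CRACR2B (chr11:826144-831991, plus strand) had 7, 1 and 0 counts in young and 27, 39 and 31 in senescent TRF2 libraries, and its log2 fold change was 3.62 ± 0.59 (SE; adjusted p = 6.50e-05). With the empty vector it had 2, 2 and 3 counts in young and 26, 29 and 54 in senescent cells. The ratio was 16.5 with a 95% counting interval of 7.73 to 41.9. That comparison chose the end, so the interval carries no test, and it leaves out the spread between replicates. With siLMNB1 CRACR2B had 2, 3 and 2 counts. No young library reached the lowest senescent one.

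LMNTD2 (chr11:554850-560738, minus strand), which encodes a protein with a lamin tail domain, had 1, 2 and 1 counts in young and 17, 19 and 14 in senescent TRF2 libraries, a ratio of 13.1 (95% counting interval 4.80 to 49.9). The fitted log2 fold change was 3.59 ± 0.68 (SE; adjusted p = 0.000267). In young empty-vector cells it had 7, 1 and 4 counts and in senescent ones 11, 9 and 24, and with siLMNB1 6, 8 and 20. The young libraries of both vectors overlapped, the siLMNB1 library with 20 counts reached into the senescent range, and 40.0% of its exonic bases are shared with LRRC56 and an antisense gene. The strand setting of the counting is not given in the sources used here, so reads of these genes cannot be told apart.

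IFITM10 (chr11:1732406-1750595, minus strand), a distant member of the family of interferon-induced transmembrane proteins, had 6, 8 and 4 counts in young and 23, 40 and 48 in senescent TRF2 libraries. Its log2 fold change was 2.66 ± 0.43 (SE; adjusted p = 5.54e-05). With the empty vector it had 4, 7 and 6 against 20, 36 and 41 counts, without overlap. It shares 22.2% of its exonic bases with ENSG00000250644 on the same strand.

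B4GALNT4 (chr11:369499-382117, plus strand), a transferase that adds N-acetylgalactosamine to glycans, was the member with the largest rise among those well above 0 in young cells. It was at 8.04, 9.32 and 7.64 CPM in young and 44.5, 42.1 and 39.1 CPM in senescent TRF2 libraries, a log2 fold change of 2.33 ± 0.15 (SE; adjusted p = 2.33e-09). With the empty vector it was at 5.86, 6.81 and 5.02 CPM in young and 31.7, 30.0 and 46.3 CPM in senescent cells. In the siLMNB1 libraries it was at 7.24, 8.01 and 7.73 CPM. The lowest senescent library, at 30.0 CPM, was well above the highest young one, at 9.32 CPM.

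**Figure D2:**
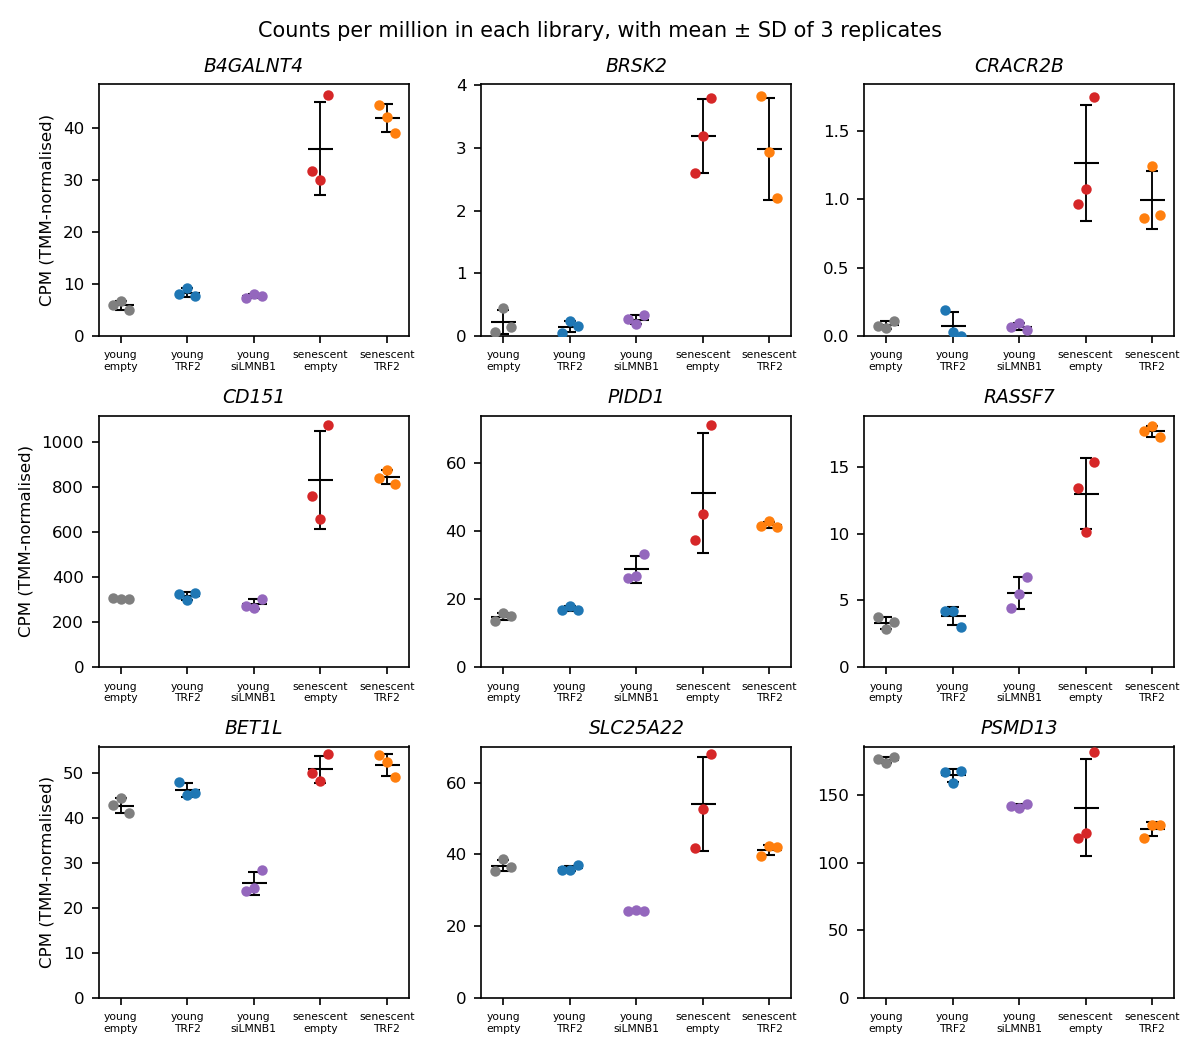
TMM-normalised CPM (y axis, from 0) of 9 members in each of the 15 libraries, by condition (x axis), with the mean and SD of 3 replicates as bars. B4GALNT4, BRSK2 and CRACR2B are near the bottom of their panels in all 9 young libraries; PIDD1 and RASSF7 are in between with siLMNB1; BET1L and SLC25A22 are lowest with siLMNB1.

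By role, the genes of the membrane and cell surface had 5 of 6 tested members higher in senescent cells with TRF2, where 11.9% of all genes and 41.6% of those with exonic GC of 65% or more were. Without the genes that only the senescent libraries kept, the counts by role were 3 of 4 for the membrane, 3 of 7 for metabolic enzymes, 2 of 5 for Ras and kinase signalling, 1 of 2 for the cytoskeleton, 1 of 3 for innate immunity and 0 of 2 for the nervous system. Besides CRACR2B and IFITM10 the higher membrane genes were CD151, from 316 ± 17.1 to 844 ± 32.1 CPM (mean ± SD, n = 3; log2 fold change 1.42 ± 0.13 SE), TSPAN4, a tetraspanin of migrasomes, from 158 ± 6.69 to 337 ± 3.02 CPM, and TMEM80, a transmembrane protein of the ciliary transition zone, from 10.5 ± 1.23 to 23.0 ± 2.06 CPM. The exception was PKP3, a desmosomal plakophilin, at 1.25, 0.801 and 0.908 CPM in young and 0.797, 0.541 and 0.627 CPM in senescent cells (log2 fold change -0.59 ± 0.29 SE; adjusted p = 0.0896). Of 7 metabolic enzymes, 3 were higher. B4GALNT4 was joined by PNPLA2, the triglyceride lipase of lipid droplets, from 30.7 ± 3.08 to 86.4 ± 1.22 CPM (log2 fold change 1.49 ± 0.13 SE; adjusted p = 4.10e-08), and GATD1, a protein with a glutamine amidotransferase-like domain, from 33.7 ± 5.14 to 71.5 ± 2.42 CPM. PTDSS2, a phosphatidylserine synthase, CHID1, a chitinase-domain protein, TALDO1 and PGGHG, a glucosidase of collagen hydroxylysine, had log2 fold changes of 0.95, 0.79, 0.30 and 0.60, below the fold threshold.

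Of 6 members in Ras and kinase signalling, 3 were higher. RASSF7, a protein with a Ras association domain, was at 4.16, 4.21 and 3.01 CPM in young and 17.7, 18.1 and 17.3 CPM in senescent TRF2 cells (log2 fold change 2.22 ± 0.18 SE; adjusted p = 3.44e-08). DUSP8, a phosphatase of stress-activated MAP kinases, was at 6.63, 7.72 and 8.71 CPM in young and 20.3, 24.4 and 21.8 CPM in senescent cells (log2 fold change 1.53 ± 0.14 SE; adjusted p = 1.13e-07). BRSK2 was the third. RIC8A, a chaperone of G protein alpha subunits, HRAS and MOB2, a partner of NDR kinases, had log2 fold changes of 0.48, 0.55 and 0.75, below the fold threshold. Of 3 cytoskeletal members, EPS8L2, an actin regulator of the EPS8 family, was higher, from 10.8 ± 1.80 to 31.9 ± 1.98 CPM, as was LMNTD2. LRRC56, a protein of ciliary dynein assembly, was at 1.77, 2.70 and 1.19 CPM in young and 3.15, 3.12 and 3.11 CPM in senescent cells and did not pass (log2 fold change 0.73 ± 0.31 SE; adjusted p = 0.0577).

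Of 3 innate immune members, PIDD1, a p53-induced death domain protein that activates caspase-2, was higher, from 17.2 ± 0.701 to 41.9 ± 0.892 CPM (log2 fold change 1.29 ± 0.17 SE; adjusted p = 8.89e-06). SIGIRR and TOLLIP, both dampers of Toll-like and interleukin-1 receptor signalling, had log2 fold changes of 0.79 and 0.83. None of 3 members of the nervous system passed both thresholds by edgeR or DESeq2. In 1 of them, CEND1, the adjusted p was 0.0013 by edgeR's quasi-likelihood test, and only the fold threshold was not met. CEND1, which promotes cell cycle exit of neuronal precursors, had a log2 fold change of 0.83, DRD4 of 1.30 and SLC25A22, a mitochondrial glutamate carrier, of 0.19.

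None of the 8 housekeeping members passed the fold threshold by edgeR or DESeq2, though 6 had an adjusted p below 0.05 by edgeR's quasi-likelihood test, the largest 0.0124 in POLR2L. PHRF1, a ubiquitin ligase, AP2A2, a clathrin adaptor subunit, RNH1, the ribonuclease inhibitor, DEAF1, a transcription factor, and POLR2L had log2 fold changes of 0.88, 0.64, 0.67, 0.63 and 0.62. BET1L, a Golgi SNARE, and MRPL23, a protein of the mitochondrial ribosome, had 0.17 and -0.14. PSMD13, a subunit of the lid of the 26S proteasome, was the only member with a negative log2 fold change at an adjusted p below 0.05. It was at 168, 159 and 168 CPM in young and 119, 128 and 128 CPM in senescent TRF2 libraries (log2 fold change -0.40 ± 0.12 SE; adjusted p = 0.00984). With the empty vector it was at 177, 174 and 178 CPM in young and 118, 123 and 182 CPM in senescent cells. The third of these senescent replicates, the library with the steepest GC dependence, was above the young ones and the other 2 were below.

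The 9 members that passed only in the empty-vector comparison were PGGHG, SIGIRR, PTDSS2, LRRC56, DRD4, DEAF1, CEND1, POLR2L and MOB2. In senescent empty-vector cells POLR2L was at 290, 287 and 580 CPM, MOB2 at 30.2, 28.8 and 48.9 CPM and PGGHG at 5.65, 6.22 and 12.2 CPM. The third replicate was the highest of the 3 in each. In senescent TRF2 cells these 3 genes were at 281, 273 and 270, at 29.1, 26.5 and 28.2 and at 6.21, 6.91 and 5.47 CPM, close to the first 2 replicates. Not all 9 were like this. In senescent empty-vector cells DRD4 was at 0.446, 0.111 and 0.324 CPM and CEND1 at 23.4, 13.4 and 23.8 CPM. LRRC56 and DRD4 were still higher without the third replicate. LRRC56 was at 0.837, 0.998 and 0.781 CPM in young empty-vector and 1.77, 2.70 and 1.19 CPM in young TRF2 cells. The difference between the empty-vector and the TRF2 comparison was tested as an interaction, which uses the libraries of both. No member passed by edgeR or DESeq2, where 1.13% of all genes did, and 4 members had an unadjusted p below 0.05. That these 9 genes respond differently with TRF2 was therefore not shown.

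**Figure D3:**
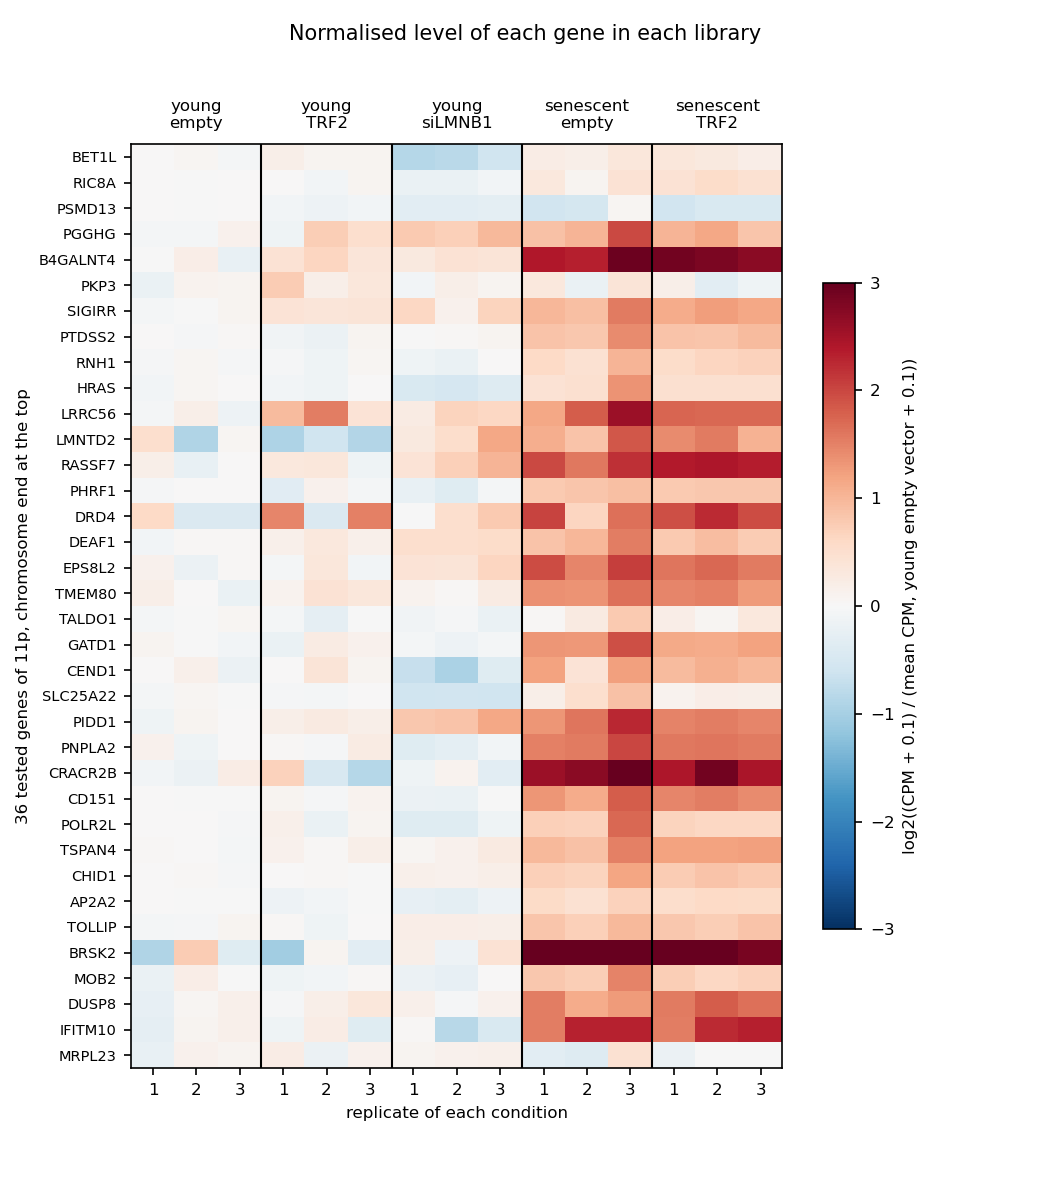
Log2 ratio of each library's CPM to the mean of the young empty-vector libraries (colour, with 0.1 CPM added to both, colours capped at 3 in either direction) for the 36 tested genes from the chromosome end at the top (rows) and the 15 libraries by condition and replicate (columns). Most rows are red in all 6 senescent libraries, the third senescent empty-vector library is the darkest of its group in most rows, and PSMD13 is pale blue in 5 of the 6.

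Head-to-head pairs, genes on opposite strands whose starts lie within 1 kb, gave the following values. POLR2L (chr11:837356-842529) and TSPAN4 (chr11:842812-867116) have 282 bases between their starts, most of them printed above. With TRF2, POLR2L was at 195, 154 and 187 CPM in young and 281, 273 and 270 CPM in senescent cells (log2 fold change 0.62 ± 0.20 SE; adjusted p = 0.0124), below the threshold that TSPAN4 passed with 1.09 ± 0.12 (SE; adjusted p = 1.34e-06). HRAS (chr11:532242-537321) and LRRC56 (chr11:537527-554912) lie 205 bases apart. HRAS was at 52.6, 50.3 and 56.2 CPM in young and 77.2, 77.7 and 77.4 CPM in senescent TRF2 libraries, a log2 fold change of 0.55, and LRRC56 had 0.73. In the comparison that chose the end HRAS had 0.82 and LRRC56 2.07. BET1L and RIC8A (chr11:207708-215113), 308 bases apart, had 0.17 and 0.48 with TRF2. In LMNTD2 and RASSF7, with 333 bases between starts in a stretch that both genes span, both were higher with TRF2, as given above. No difference within a pair was tested.

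With siLMNB1 in young cells, 3 members were higher and 3 lower than with the empty vector at an adjusted p below 0.05 and a log2 fold change no smaller than 0.58, where 10.3% of all genes were higher and 8.06% lower. The median over the members was 0.05, against 0.04 over all genes. This comparison shares its young empty-vector libraries with the one that chose the end. PIDD1 had the largest rise. It was at 13.6, 15.8 and 15.1 CPM with the empty vector and at 26.2, 26.9 and 33.3 CPM with siLMNB1, a log2 fold change of 0.96 ± 0.17 (SE, n = 3 and 3; adjusted p = 0.000566). PGGHG was at 2.89, 2.91 and 3.31 CPM and rose to 5.34, 5.04 and 6.09 CPM (0.86 ± 0.27 SE; adjusted p = 0.0219). RASSF7 was at 3.73, 2.82 and 3.35 CPM and rose to 4.39, 5.50 and 6.77 CPM (0.76 ± 0.19 SE; adjusted p = 0.00606). In all 3 genes each siLMNB1 library was above each empty-vector library.

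The lower members were BET1L, CEND1 and SLC25A22. BET1L (chr11:167784-207399, minus strand), the member nearest the telomere, was at 42.8, 44.3 and 41.0 CPM with the empty vector and 23.7, 24.4 and 28.4 CPM with siLMNB1, a log2 fold change of -0.74 ± 0.09 (SE; adjusted p = 1.07e-05). In senescent cells it was at 48.1 to 54.1 CPM with the empty vector and 49.2 to 53.9 CPM with TRF2, so the siLMNB1 libraries were the lowest of all 15. Its neighbour RIC8A was at 175 to 177 CPM with the empty vector and 153 to 165 CPM with siLMNB1 (log2 fold change -0.16 ± 0.09 SE; adjusted p = 0.177). SLC25A22 was at 35.4, 38.6 and 36.6 CPM and fell to 24.2, 24.6 and 24.3 CPM (-0.60 ± 0.13 SE; adjusted p = 0.00169). CEND1, the gene next to it, was at 10.0, 11.1 and 8.93 CPM and fell to 6.13, 5.10 and 7.78 CPM (-0.66 ± 0.20 SE; adjusted p = 0.0189). CEND1 was at 13.4 to 23.8 CPM in the senescent empty-vector libraries, above the young ones, while with siLMNB1 it was below them. Without replicate 2 of the young empty-vector cells only BET1L remained of the 3.

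Of the 6 members with the largest rises with TRF2, RASSF7 was higher with siLMNB1, as given above, and the others did not pass. LMNTD2 had a log2 fold change of 1.14 with a 95% interval of -0.03 to 2.30 (adjusted p = 0.158), and IFITM10 of -0.63 with an interval of -1.72 to 0.45. B4GALNT4 had a log2 fold change of 0.37 ± 0.16 (SE; adjusted p = 0.0891), BRSK2 of 0.20 with a 95% interval of -0.90 to 1.29, and CRACR2B of -0.25 with an interval of -1.95 to 1.44. The intervals of these last 2 genes reach past the fold threshold in both directions, so no difference was detectable at this depth. DEAF1, EPS8L2 and SIGIRR rose by 0.52, 0.50 and 0.50 at adjusted p of 0.00769, 0.0217 and 0.0376, under the fold threshold.

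With TRF2 against the empty vector, no member passed an adjusted p of 0.05 by edgeR's quasi-likelihood test over all 15 libraries. In senescent cells this comparison is not of TRF2 alone. The TRF2 cells were at PD 75 and the empty-vector cells at PD 71, and the 2 differences cannot be told apart. In young cells, 0.177% of all genes changed with TRF2 and no member did by edgeR or DESeq2, with 4 members at an unadjusted p below 0.05. The largest log2 fold changes were 2.33 for DRD4 and -1.70 for LMNTD2, both with 10 or fewer counts in each of the libraries compared. In senescent cells, 11.3% of all genes changed and no member did by edgeR, with 8 at an unadjusted p below 0.05, and 1 member passed with DESeq2. The log2 fold changes of the members ranged from -0.49 for POLR2L to 0.64 for DRD4, and the smallest adjusted p was 0.0515, for SLC25A22. The count changed when 1 senescent empty-vector library was left out, and 9 members passed without replicate 1, 2 without replicate 2 and 5 without replicate 3. In the same fits 27.1%, 8.50% and 10.8% of all genes passed, against 25%, 5.56% and 13.9% of the 36 members. Both comparisons share libraries with the one that chose the end.

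Along the chromosome, the share of higher members did not follow the distance from the telomere step by step. In the TRF2 comparison 1 of 9 tested members was higher among those that start in the first 0.5 Mb, 10 of 21 between 0.5 and 1 Mb, 1 of 3 between 1 and 1.5 Mb and 2 of 3 between 1.5 and 2 Mb. The medians were 0.60, 1.09, 0.83 and 1.53 on the log2 scale. In the empty-vector comparison the counts were 4, 15, 2 and 2. These counts and medians include the 5 members that passed the filter only through the senescent libraries. With TRF2, BRSK2 was the higher member between 1 and 1.5 Mb, and IFITM10 was among those between 1.5 and 2 Mb. LMNTD2 and CRACR2B were among those between 0.5 and 1 Mb. The filter thus fixes part of the counts beyond 0.5 Mb. Over the 31 members that passed the filter through the young libraries alone, the log2 fold change of the TRF2 comparison had a Pearson correlation of 0.06 with the start position, 0.49 with exonic GC and -0.15 with the log2 level in young empty-vector cells. Over all 36 tested members the values were 0.25, 0.45 and -0.61, and the filter itself fixes part of the last, since the 5 added genes are low in young cells and had to rise to be tested. These describe genes measured in the same libraries.

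At the 2 Mb limit, MRPL23 (chr11:1947278-1984522, plus strand) was the last member and the nearest tested gene beyond was IGF2 (chr11:2129112-2158391), a fetal growth factor. MRPL23 had log2 fold changes of -0.03 and -0.14 in senescence without and with TRF2. IGF2 had -6.57 and -6.56 and lay outside. Of 17 tested protein-coding genes that start between 2 and 4 Mb, 3 were higher and 1 lower with TRF2, with a median log2 fold change of 0.68.

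Other chromosome ends that the empty-vector comparison also picked out were set beside it in the TRF2 comparison. There, 26 of 66 tested protein-coding genes were higher within 2 Mb of the end of 16p, 25 of 57 at 19p and 21 of 49 at 9q, with medians of 0.86, 0.95 and 0.89. The share at 11p was 38.9%, against 39.4%, 43.9% and 42.9%. The median exonic GC was 63.8%, 64.9% and 63.2% at these ends, close to that of the members. With siLMNB1, 6 of 66 genes at 16p, 7 of 57 at 19p and 3 of 49 at 9q were higher. No difference between the ends was tested.

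Base composition moved with these results. Of the 9 tested members with exonic GC under 60%, 2 were higher in senescent cells with TRF2, of 12 members from 60 to 65% 4 were, and of 15 members with 65% or more 8 were. Among all genes tested in the same 3 classes, 9.20%, 28.9% and 41.6% were higher. The higher members from 60 to 65% include BRSK2 and IFITM10, and those with 65% or more include LMNTD2 and CRACR2B. These genes passed the filter only through the senescent libraries, so their calls carry no weight in the comparison with all genes. With offsets that take out how each library's counts depend on GC content and gene length, 6 members were higher, where 9.39% of all genes were. These were B4GALNT4, LMNTD2, RASSF7, CRACR2B, BRSK2 and IFITM10, with log2 fold changes of 1.37, 2.83, 1.33, 2.74, 3.47 and 1.99. Of the 31 members that did not need the senescent libraries to pass the filter, 2 were left, B4GALNT4 and RASSF7, or 6.45%. The 9.39% also covers genes that only the senescent libraries kept, so these shares are not over like sets. PKP3 was lower with -1.45 ± 0.29 (SE; adjusted p = 0.000428), and the median of the members was 0.20. CD151, PNPLA2 and TMEM80 kept an adjusted p below 0.05 with log2 fold changes of 0.79, 0.76 and 0.88, under the fold threshold, while TSPAN4 had 0.17 (adjusted p = 0.0268). PSMD13, the member with the lowest GC, had -0.30 with the offsets. In the empty-vector comparison the offsets left 6 members higher, where 11.8% of all genes were, and the median was 0.31 in place of 1.16. Among the same 31 members 3 were left, or 9.68%, with the same limit on the comparison with all genes. With siLMNB1 they left 2 higher, PGGHG and PIDD1, and the same 3 lower, where 10.8% and 8.07% of all genes were. The part of base composition, or of the earlier deposit, in the rise of these genes was not tested.

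**Figure D4:**
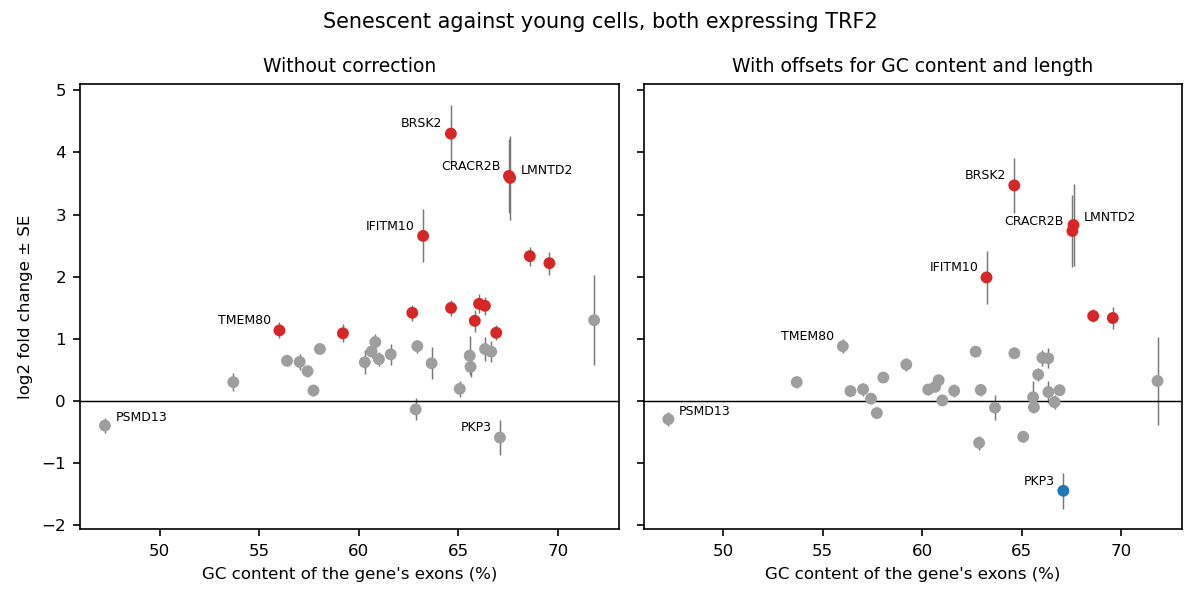
Log2 fold change with its SE (y axis) of the 36 tested genes against the GC content of their exons in percent (x axis), for senescent against young cells that both express TRF2, without correction (left) and with offsets for GC content and length (right). Red points were higher and blue points lower by adjusted p and fold threshold; 14 points are red on the left and 6 on the right, where BRSK2 is still the highest and PKP3 the only blue one.

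Markers of dividing and arrested cells moved with senescence as well. The summed level of 6 proliferation markers was 427 to 548 CPM in young cells with either vector, 250 to 255 CPM with siLMNB1 and 37.9 to 82.3 CPM in senescent cells. The summed level of 6 genes linked with senescence, CDKN1A and CDKN2A among them, was 3023 to 3281 CPM in the 9 young and 4838 to 5623 CPM in the 6 senescent libraries. Their part in the level of the 11p genes was not tested. In bulk RNA a change of a gene in every cell and a change in the share of cells that express it cannot be told apart.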

How the data were processed

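RNA-seq reads of the 15 libraries were trimmed by the authors with Trimmomatic 0.39 (minimal read length 35 bases) and mapped to GRCh38 with STAR 2.6.1d in its gene count mode. The authors deposited the counts per gene as they were, not normalised. The annotation release and the strand setting of the counting are not given in the sources used here. Total counts ranged from 26725885 to 43116046 per library, and their number sets the counting error of each value. Intervals and floors cover counting error only.

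Groups were taken from the labels. Genes were named and placed with GENCODE 44, from which 324 genes of the table are absent, and GC content and length were taken over the union of exons. Counts were normalised with TMM and fitted after filterByExpr in edgeR 4.0.16 (limma 3.58.1, R 4.3.3) with a mean for each condition over all 15 libraries. Contrasts were tested by quasi-likelihood, and p-values were adjusted by Benjamini-Hochberg across all 15799 genes kept. Genes called higher or lower had an adjusted p below 0.05, and their log2 fold change was no smaller in size than 1 in senescence or 0.58 with siLMNB1, while TRF2 and the interaction had no fold threshold. Offsets for GC content and length came from loess curves (span 0.3, prior count 1) in each library. Ratios of summed counts have exact 95% intervals. Alternatives were DESeq2 1.42.0, the offsets, a replicate block, no filter on low counts, a fit of just the compared libraries, no fold threshold, members whose exons overlap no other gene, and leaving out each library in turn.

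The members, the role lists, the comparison regions and the rule for named genes were chosen with earlier results of these data known. Every member is named. Full values are given for the 5 largest rises and falls among called members without overlap in each comparison, for the members at both limits and for head-to-head pairs with a called gene. In simulated libraries 200 genes were given a log2 change of 2, and 85% of them were found in the TRF2 comparison (15004 genes, 5 false calls), 87.5% with siLMNB1 (14989 genes, 11 false calls) and 85% for the interaction (15010 genes, 10 false calls). All simulated libraries were drawn around the mean levels of young empty-vector cells, without the GC dependence of the senescent libraries. A gene counted as found at an adjusted p below 0.05, with no fold threshold. These values therefore describe the fit under those settings and not the error rates of the real comparisons. Python 3.11.15, numpy 2.4.6, pandas 2.3.3, scipy 1.17.1 and matplotlib 3.10.9 served for summaries and figures.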

Additional observations from a re-analysis of the deposited data

How the results depend on the processing

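When counts were offset for GC content and length, alone or with the replicate block, 6 members instead of 23 were higher in senescent empty-vector cells and 6 instead of 14 with TRF2, where 1 was lower. With no fold threshold 33 and 27 rose and 1 and 1 fell, where 32.7% and 28.2% of all genes rose, and with siLMNB1 6 of 36 rose, near the 16.4% of all genes. Among the 21 tested members that share no exonic base the counts were 13, 7 and, for the fall with siLMNB1, 1. The shares of all genes were 16.7%, 11.9% and 8.06%. Leaving out 1 library gave 14 to 23 higher members with the empty vector (14 without replicate 3 of the senescent cells) and 13 to 15 with TRF2. In these fits 13.6% to 17.9% and 10.8% to 11.6% of all genes were higher. With siLMNB1 it gave 2 to 4 higher and 1 to 3 lower (1 without replicate 2 of the young empty-vector cells). There, 15.5% to 16.5% of all genes passed in either direction.

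For TRF2 in senescent cells, where no member passed, 1 did with DESeq2, 4 with no filter on low counts, 1 with the replicate block, 6 with the offsets, 4 with both, and 0 to 9 with 1 library left out. The shares of all genes were 15.9%, 8.28%, 11.5%, 15.5%, 15.2% and, with 1 library left out, 4.45% to 27.1%. With no filter 1 member passed for TRF2 in young cells and 2 for the interaction, which had 0 to 4 with 1 library left out (4 without replicate 1 of the senescent empty-vector cells). With no filter 0.806% and 3.01% of all genes passed in these comparisons, against 2.08% and 4.17% of 48 members. Without that replicate 12.8% of all genes passed for the interaction, against 11.1% of 36 members. The replicate block otherwise moved no count by over 1.5 times and left 22 and 14 higher members, where 16.4% and 11.9% of all genes were higher. Same-numbered libraries of different conditions correlated by -0.0945 to 0.201 in their deviations from the condition means, over 0.1 in 2 of 30 pairs, so the numbers were not taken to pair the samples. As a hint from the data alone, 8 of 15 libraries correlated best with their own number.

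Under the offsets, without and with the replicate block, these log2 fold changes turned negative. With the empty vector they were BET1L (-0.25 and -0.25), RIC8A (-0.26 and -0.26), PKP3 (-0.88 and -0.89), RNH1 (-0.0782 and -0.0831), HRAS (-0.17 and -0.17), PHRF1 (-0.00916 and -0.00973), CEND1 (-0.00167 and -0.0104) and SLC25A22 (-0.42 and -0.42). With TRF2 they were BET1L (-0.20 and -0.20), SIGIRR (-0.0233 and -0.0222), HRAS (-0.11 and -0.11) and SLC25A22 (-0.58 and -0.58). The cause was not tested. In members with few counts, such as DRD4 and LMNTD2, depth limits the size of the change.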
